A study of Mus musculus with 15 samples.

Results

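The genes described here are 45 mouse genes of mitosis and chromosome segregation, taken from a list of kinases, kinetochore proteins, motors and cytokinesis factors and read in colon scrapings of mice fed heme. A listed gene was measured where the array annotation gave a probe set that gene symbol and no other. Where several did, the brightest on average across the 15 arrays was used. This held for 44 of the 45 genes (Ccnb1 had no such probe set), out of 18194 genes on the array. A gene was tested where its signal lay over 20 (4.32 on the log2 scale) on at least 6 arrays, which 43 of the 44 passed, against 9257 genes in all. Ndc80 lay over this floor on 5 arrays and was not tested.

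All animals were male C57BL/6 mice aged 11 weeks, and all received a Westernized diet rich in fat (40% of energy) and low in calcium for 14 days. The 6 control mice received this diet alone, and the diet of the 9 heme mice also held 0.5 µmol/g heme, the iron porphyrin pigment of red meat. A control mouse numbered 5 was not analysed here. RNA came from scrapings of the opened and washed colon, 1 Affymetrix array was run per mouse without pooling, and the comparison asks how dietary heme changes expression in this tissue. Scrapings hold several cell types in bulk, so fewer cells of a type and less RNA per cell cannot be told apart.

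Cells enter mitosis when cyclin B bound to Cdk1 is activated, a step that Plk1 and the Cdc25 phosphatases drive and Wee1 restrains. Kinetochores then attach the chromosomes to spindle microtubules, and the spindle checkpoint blocks the anaphase promoting complex until all are attached, after which securin and cyclin B are destroyed, sister chromatids part and the cell divides at the midbody. In the colon, dividing cells lie in the lower part of the crypt, and the transcripts of these genes are made mainly from late S phase to mitosis.

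Genes of this program are known to carry a CCAAT box, bound by NF-Y, and a CHR element, bound by the MuvB complex, close to their start. RefSeq promoter sequences on build GRCm38.p6, from 250 bases before to 50 bases after each annotated start, gave 40 windows for 37 of the 45 genes. Each window was searched on both strands for CCAAT, for the CHR letters TTTGAA or TTTAAA, and for the E2F letters TTTCGCGC, TTTGGCGC or TTCCCGCC, and matches of each element were counted separately. The lines that follow give the 150 bases before the start, 5′ to 3′ along the gene's strand, with every match in capitals (the reverse complement where the match lies on the other strand). Plk1 and Aurka are shown because their transcripts rose the most, Cdk1, Cdc20, Ube2c and Mki67 as widely used mitosis genes, Mad2l1 because it holds none of the letters, and Bub3 and Cks2 because their transcripts changed the least among those that rose.
Plk1: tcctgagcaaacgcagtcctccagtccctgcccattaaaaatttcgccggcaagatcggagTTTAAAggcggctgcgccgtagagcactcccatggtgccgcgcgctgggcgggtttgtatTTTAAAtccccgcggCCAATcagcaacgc
Aurka: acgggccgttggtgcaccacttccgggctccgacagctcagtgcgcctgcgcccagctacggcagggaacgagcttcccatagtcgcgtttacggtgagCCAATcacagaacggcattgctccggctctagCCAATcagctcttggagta
Cdk1: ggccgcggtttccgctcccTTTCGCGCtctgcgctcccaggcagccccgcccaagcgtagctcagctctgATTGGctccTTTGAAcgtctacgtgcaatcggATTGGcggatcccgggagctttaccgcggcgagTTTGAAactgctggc
Cdc20: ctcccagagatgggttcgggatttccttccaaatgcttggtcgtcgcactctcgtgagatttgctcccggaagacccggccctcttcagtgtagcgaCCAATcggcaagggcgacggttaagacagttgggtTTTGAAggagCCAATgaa
Ube2c: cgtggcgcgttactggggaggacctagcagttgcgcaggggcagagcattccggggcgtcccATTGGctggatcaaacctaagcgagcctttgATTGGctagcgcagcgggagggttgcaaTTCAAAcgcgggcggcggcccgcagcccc
Mki67: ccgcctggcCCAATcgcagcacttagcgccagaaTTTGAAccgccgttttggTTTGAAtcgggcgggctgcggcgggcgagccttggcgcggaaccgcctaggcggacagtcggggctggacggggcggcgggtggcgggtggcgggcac
Mad2l1: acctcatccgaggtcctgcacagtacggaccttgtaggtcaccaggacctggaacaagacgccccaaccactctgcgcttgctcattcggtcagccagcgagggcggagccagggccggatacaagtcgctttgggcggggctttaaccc
Bub3: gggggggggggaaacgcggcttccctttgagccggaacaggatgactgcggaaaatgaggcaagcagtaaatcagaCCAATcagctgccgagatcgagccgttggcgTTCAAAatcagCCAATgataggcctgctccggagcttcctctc
Cks2: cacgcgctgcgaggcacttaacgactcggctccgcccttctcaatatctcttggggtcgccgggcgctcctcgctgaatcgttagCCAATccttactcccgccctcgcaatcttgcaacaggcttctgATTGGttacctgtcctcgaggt
On GRCm38.p6 these stretches are chr7:122159285-122159434 on the plus strand for Plk1, chr2:172370571-172370720 on the minus strand for Aurka, chr10:69352913-69353062 on the minus strand for Cdk1, chr4:118437344-118437493 on the minus strand for Cdc20 and chr2:164769779-164769928 on the plus strand for Ube2c. Those of the others are chr7:135716380-135716529 on the minus strand for Mki67, chr6:66535071-66535220 on the plus strand for Mad2l1, chr7:131560220-131560369 on the plus strand for Bub3 and chr13:51645082-51645231 on the plus strand for Cks2.

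Of the 40 windows, 32 (80.0%) held a CCAAT box, against 37.4% of all 32851 promoter windows and 37.4% of the 9728 windows of tested genes. The CHR letters were in 34 windows (85.0%), against 27.6% of all windows and 19.6% of those of tested genes. Both elements together were in 30 windows (75%), against 10.7% and 7.45%, and 2 or more CCAAT boxes in 23 windows (57.5%), against 11.7% and 14.3%. E2F letters were in 1 window (2.50%), that of Cdk1, against 2.96% and 5.52%. The 73 CCAAT matches lay at a median position of −67 bases from the start and the 50 CHR matches at −17 bases, 35 of them within 60 bases of it. Bub3, Ect2 and Prc1 have overlapping windows on neighbouring starts. The same letters of these genes are therefore counted in each of their windows, here and in the shares above. The CHR letters of Aurka lie after the start and are therefore outside the stretch printed. A match is a run of letters and not a measured binding site. The windows of 4 members held none of the letters searched, and their log2 changes were 1.19 (Mad2l1), 1.05 (Nuf2), 0.71 (Nusap1) and −0.17 (Pttg1, the member that was not called). The only Pttg1 window is set on a start 1482 bases from the annotated 5′ end of the gene, and that of Kif2c on one 3852 bases away. The sequence at that end of these genes was therefore not searched. Bub3, whose window holds both elements, had a log2 change of 0.18.

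**Figure D1:**
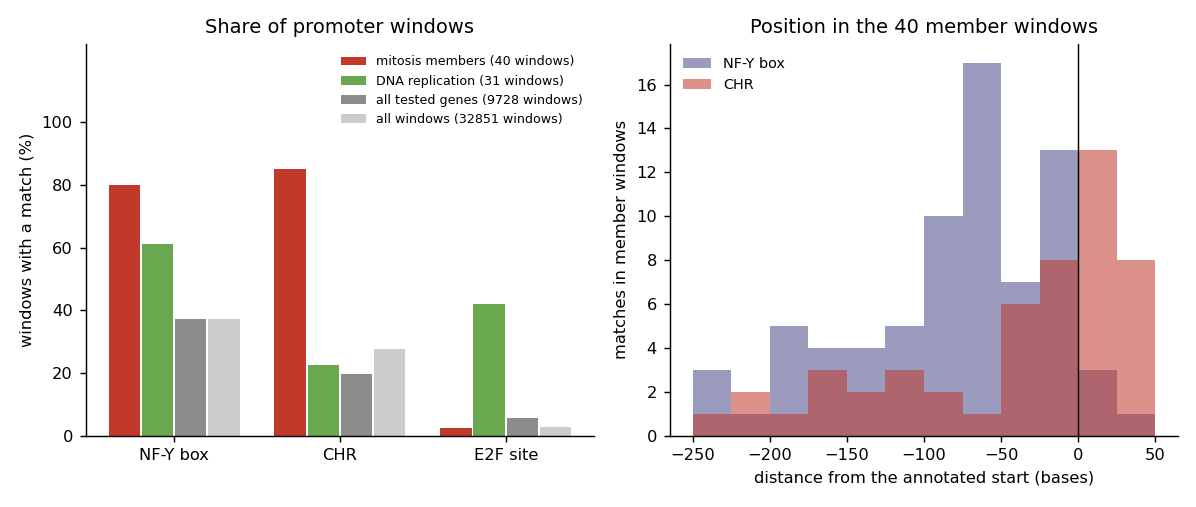
The left panel gives the percent of promoter windows holding the NF-Y box (CCAAT), the CHR letters or an E2F site, for the mitosis genes (40 windows), DNA replication genes (31 windows), all tested genes and all windows; the right panel counts matches by distance from the annotated start in bases in the 40 windows. CHR letters were in 85.0% of the mitosis windows and 22.6% of the replication windows, and E2F letters in 2.50% and 41.9%.

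Mitosis transcripts were higher in heme mice along the whole course of division, from the entry kinases Plk1 and Aurka to the cytokinesis factors Prc1 and Racgap1. With limma (two-sided, Benjamini-Hochberg adjustment over all 9257 tested genes, threshold 0.05), 42 of the 43 tested members (97.7%) were higher in heme mice and 0 were lower, where 27.2% of all tested genes were called higher, 26.4% lower and 53.6% in either direction. Control mouse 2 stands apart in muscle and stromal markers and control mouse 4 in distal colon Hox genes. Heme mouse 6 was picked out in an earlier analysis of these data, but it does not stand apart in these markers here. Its smooth muscle mean was 6.39, within the heme range of 5.88 to 7.27. Its fibroblast and matrix mean was 6.53 (heme range 6.04 to 7.73) and its Hox mean 8.46 (7.78 to 8.63). Without these mice 42 of 43 were again higher, against 25.8% of all tested genes, with a member median of 1.27 on the log2 scale. Control mouse 4 was the highest control and heme mouse 6 the lowest heme mouse in the members' mean. Leaving them out therefore draws the groups apart and is no separate support. The member that was not called is Pttg1, which encodes securin. With all mice the median log2 change was 1.05 (2.08-fold), with quartiles of 0.88 and 1.22, and the changes ran from −0.17 (Pttg1) to 1.83 (Plk1). Over all tested genes the median was −0.01, the 95th percentile 0.77 and the 99th percentile 1.53. At least a 2-fold rise was seen in 27 members, against 2.98% of all tested genes. In 33 members (76.7%) every heme mouse lay above every control mouse, against 11.2% of all tested genes, and in 0 did every heme mouse lie below every control, against 8.93%. In 3 of the 43 the controls alone would not have passed the filter, with 3 of 6 control mice over the floor for Cdc25c and Ttk and 5 for Cdca2, against 9 of 9 heme mice, so these 3 were tested through the heme group. Of the other 40 members, over the floor in all 6 controls, 39 were higher.

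**Figure D2:**
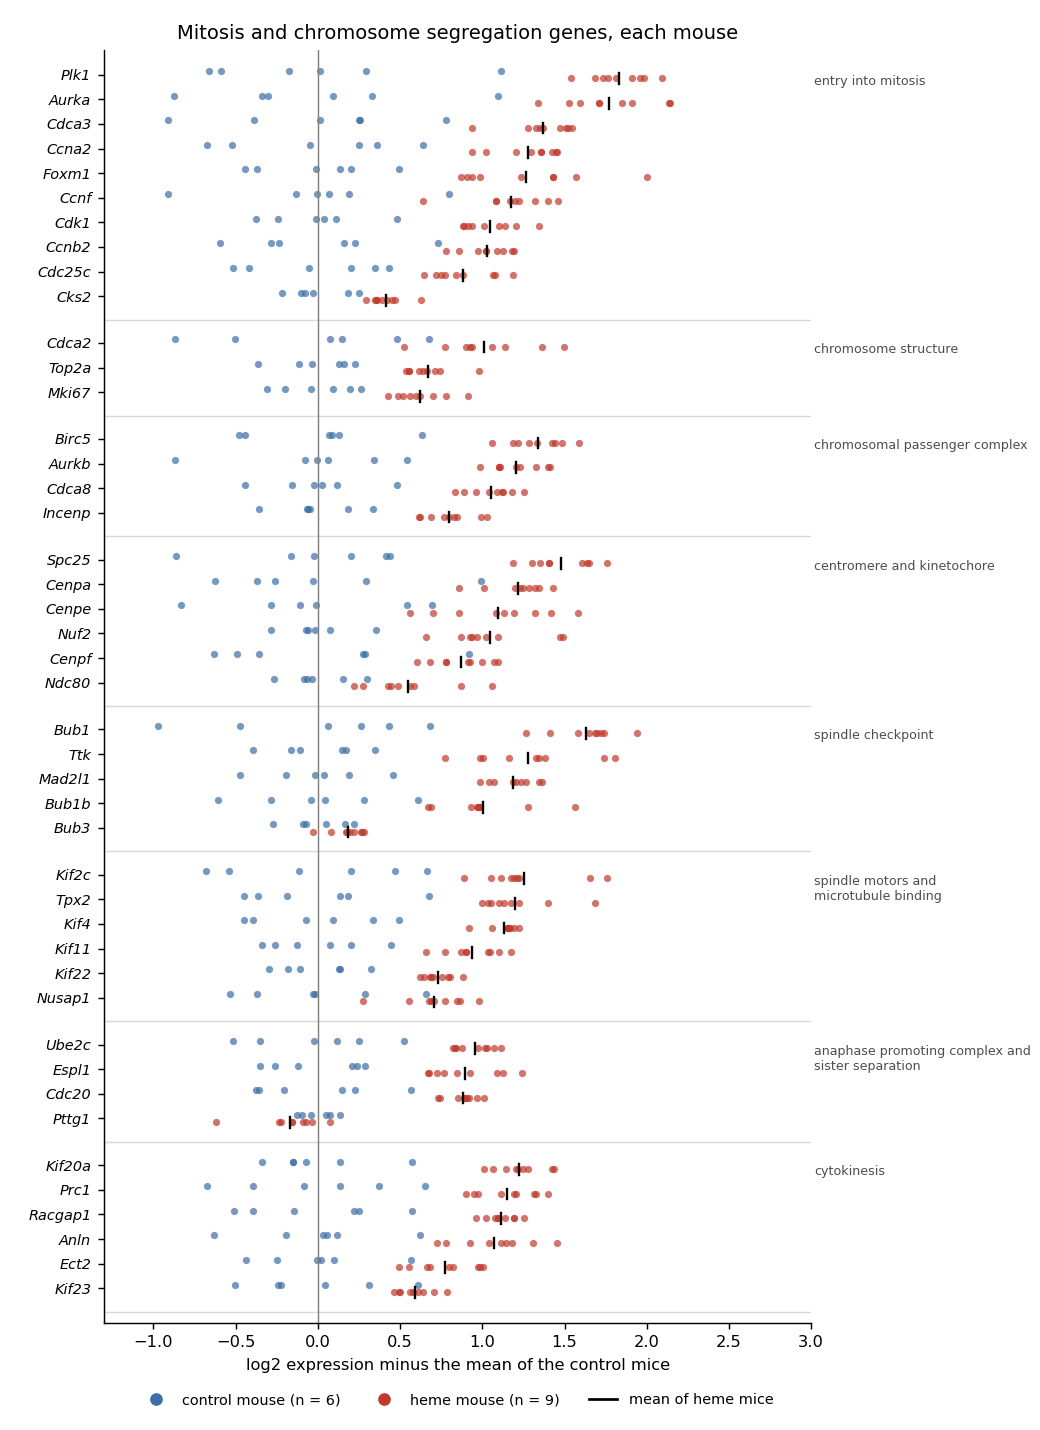
Each point is 1 mouse (blue, 6 control; red, 9 heme), placed by its log2 expression minus the mean of the control mice for that gene, with the mean of the heme mice as a black bar and genes grouped by their role. The heme mice lie to the right of all controls in 33 of the 43 tested genes (Ndc80 is drawn but was not tested), and Bub3 and Pttg1 show the smallest distance between the groups.

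The genes of entry into mitosis rose in all 10 tested cases, by a median of 1.22 on the log2 scale, and in 9 of them the groups did not overlap. Plk1 encodes the polo-like kinase that activates Cdk1 and matures the centrosomes. Its log2 expression ran from 6.28 over a median of 6.86 to 8.06 in control mice and from 8.48 over 8.76 to 9.04 in heme mice. The rise was 1.83 ± 0.21 (SE, 3.56-fold, adjusted p = 4.40e-06), and the lowest heme mouse was above the highest control. Aurka, the centrosomal Aurora kinase that activates Plk1, ran from 5.04 over 5.81 to 7.01 in controls and from 7.26 over 7.63 to 8.06 in heme mice. It rose by 1.77 ± 0.23 (3.41-fold, adjusted p = 1.40e-05), again with no overlap. In both genes the highest control was mouse 4.

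Cdk1, the kinase that starts mitosis, ran from 8.01 over 8.40 to 8.87 in controls and from 9.27 over 9.40 to 9.73 in heme mice, a log2 change of 1.05 ± 0.11 (adjusted p = 2.70e-06). Its partners changed as much: cyclin A2 (Ccna2) rose by 1.28 ± 0.17, from a median of 8.53 to 9.78, and cyclin B2 (Ccnb2) by 1.03 ± 0.15, from 9.04 to 10.10. Cks2, a small Cdk1-binding protein, changed least in this group. It ran from 10.56 over 10.73 to 11.03 in controls and from 11.07 over 11.17 to 11.41 in heme mice, a change of 0.41 ± 0.07 (1.33-fold, adjusted p = 2.52e-04), and the groups did not overlap despite the small size. Foxm1, a transcription factor of late cell cycle genes, rose by 1.26 ± 0.18 (adjusted p = 3.87e-05), from 4.33 to 5.27 in controls and 5.64 to 6.77 in heme mice, close to the floor in controls. The phosphatase Cdc25c, which removes the block on Cdk1, rose by 0.88 ± 0.14 (adjusted p = 1.06e-04), with controls from 3.81 to 4.76 around the floor and heme mice from 4.97 to 5.51. Cdca3, an adaptor for the destruction of Wee1, rose by 1.37 ± 0.19. The cyclin F gene Ccnf rose by 1.18 ± 0.19 (adjusted p = 1.13e-04), and it is the entry gene whose groups overlapped, with the lowest heme mouse at 6.01 and the highest control at 6.16.

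Genes of chromosome structure rose in 3 of 3 cases, by a median of 0.67. Mki67 encodes Ki-67, the coat protein of mitotic chromosomes used as a proliferation marker. It ran from 9.38 over 9.71 to 9.95 in controls and from 10.12 over 10.29 to 10.60 in heme mice, a rise of 0.62 ± 0.09 (adjusted p = 6.45e-05). Top2a, the topoisomerase that untangles sister DNA, ran from 9.22 over 9.64 to 9.82 and from 10.12 over 10.23 to 10.57, a rise of 0.67 ± 0.09 (adjusted p = 2.30e-05). The groups did not overlap in either gene. Cdca2, which targets a phosphatase to chromatin, rose by 1.01 ± 0.21 (adjusted p = 8.35e-04), with 8 of 9 heme mice above all controls.

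All 4 genes of the chromosomal passenger complex, which corrects faulty kinetochore attachments and later guides cytokinesis, rose without overlap. Birc5 (survivin) ran from 8.38 over 8.94 to 9.50 in controls and from 9.92 over 10.19 to 10.45 in heme mice, a rise of 1.34 ± 0.14 (adjusted p = 2.40e-06). Its kinase Aurkb ran from 6.29 over 7.19 to 7.70 and from 8.14 over 8.37 to 8.57, a rise of 1.21 ± 0.16 (adjusted p = 1.70e-05). The scaffold Incenp and the borealin gene Cdca8 rose by 0.80 ± 0.10 and 1.05 ± 0.11 (adjusted p = 7.56e-06 and 1.99e-06).

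At the centromere and kinetochore 5 of 5 tested genes rose, but the groups overlapped in 3 of them. Spc25, a subunit of the NDC80 complex that grips microtubules, ran from 5.99 over 6.94 to 7.29 in controls and from 8.04 over 8.26 to 8.61 in heme mice, a rise of 1.48 ± 0.16 (adjusted p = 3.75e-06). Nuf2, of the same complex, rose by 1.05 ± 0.12 (adjusted p = 6.72e-06), from 5.97–6.61 to 6.91–7.74. For Ndc80 itself no change was tested, as most values lay under the floor: 3.59 over 3.81 to 4.16 in controls and 4.08 over 4.34 to 4.92 in heme mice, with 7 of 9 heme mice above all controls. The 3 genes with overlap were Cenpa, the centromeric histone H3 variant, and the large kinetochore proteins Cenpe, a motor, and Cenpf. Cenpa ran from 7.45 over 7.94 to 9.07 in controls and from 8.94 over 9.33 to 9.51 in heme mice, a rise of 1.21 ± 0.19 (adjusted p = 7.36e-05). Cenpf had the weakest support of the 3, from 6.20 over 6.78 to 7.75 and from 7.43 over 7.74 to 7.92, a rise of 0.87 ± 0.19 (adjusted p = 0.00132), and 4 of 9 heme mice lay above all controls. Cenpe rose by 1.09 ± 0.21 (adjusted p = 4.92e-04), with 8 of 9 above. The highest control was mouse 4 in all 3.

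The spindle checkpoint genes rose in 5 of 5 cases, with sizes from 0.18 to 1.63 on the log2 scale. Bub1, a kinase that recruits the checkpoint to kinetochores, ran from 5.78 over 6.91 to 7.43 in controls and from 8.01 over 8.43 to 8.68 in heme mice, a rise of 1.63 ± 0.20 (adjusted p = 8.79e-06). Mad2l1 encodes Mad2, which holds the Cdc20 activator inactive. It ran from 7.99 over 8.47 to 8.92 and from 9.45 over 9.67 to 9.83, a rise of 1.19 ± 0.11 (adjusted p = 7.41e-07), with a clear gap between the highest control and the lowest heme mouse. Ttk (Mps1), the kinase at the head of the checkpoint, rose by 1.28 ± 0.16 (adjusted p = 8.30e-06), from 4.01–4.75 near the floor to 5.18–6.21. Bub1b (BubR1) rose by 1.00 ± 0.17 (adjusted p = 1.40e-04). Bub3, the partner that docks Bub1 and BubR1 on kinetochores, stood apart from them. It ran from 9.74 over 9.99 to 10.23 in controls and from 9.98 over 10.20 to 10.29 in heme mice, and 3 of 9 heme mice lay above all controls. Its change of 0.18 ± 0.07 (1.13-fold) had an adjusted p of 0.04996, just under the threshold, and the call was lost in 17 of 28 alternative settings, 11 of them among the 15 in which a single mouse was left out, with adjusted p from 0.00500 to 0.906.

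Spindle motors and microtubule-binding proteins rose in 6 of 6 cases, with a median of 1.04. Kif11, the motor that pushes the spindle poles apart, ran from 7.45 over 7.76 to 8.23 in controls and from 8.44 over 8.69 to 8.96 in heme mice, a rise of 0.94 ± 0.11 (adjusted p = 7.62e-06). Kif4, a chromosome-arm motor, ran from 4.67 over 5.13 to 5.62 and from 6.05 over 6.28 to 6.35, a rise of 1.13 ± 0.12 (adjusted p = 3.00e-06). Kif2c, which depolymerizes microtubules at centromeres, and Tpx2, the activator of Aurka on the spindle, rose by 1.25 ± 0.19 and 1.20 ± 0.15. None of these 4 genes had overlapping groups. Kif22, a motor on chromosome arms, rose by 0.73 ± 0.08 (adjusted p = 4.82e-06), with no overlap. Nusap1, which bundles spindle microtubules, rose by 0.71 ± 0.15 (adjusted p = 0.00123), with 7 of 9 heme mice above all controls.

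Genes of the anaphase promoting complex and of sister separation divided, with 3 of 4 higher and Pttg1 not called. Cdc20, the activator that turns the complex on in metaphase, ran from 9.31 over 9.65 to 10.25 in controls and from 10.41 over 10.57 to 10.69 in heme mice, a rise of 0.88 ± 0.12 (adjusted p = 2.77e-05). Ube2c, the ubiquitin-conjugating enzyme of the complex, ran from 9.29 over 9.85 to 10.33 and from 10.63 over 10.78 to 10.92, a rise of 0.95 ± 0.13 (adjusted p = 1.95e-05). Espl1, the separase that cleaves cohesin, rose by 0.90 ± 0.12 (adjusted p = 2.00e-05), from 4.49–5.12 to 5.51–6.08. Pttg1 encodes securin, the inhibitor of separase and a target of the complex. It ran from 10.87 over 11.01 to 11.14 in controls and from 10.38 over 10.84 to 11.08 in heme mice, and 0 of 9 heme mice lay above all controls. Its change was −0.17 ± 0.09 with a 95% interval from −0.35 to 0.01 (adjusted p = 0.110), an interval that does not reach the changes of Cdc20, Ube2c or Espl1. The second Pttg1 probe set over the floor had a change of −0.00 and was not called.

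In cytokinesis 6 of 6 genes rose, by a median of 1.09. Kif20a, the motor that carries the passenger complex to the midzone, ran from 5.31 over 5.54 to 6.22 in controls and from 6.66 over 6.86 to 7.08 in heme mice, a rise of 1.23 ± 0.11 (adjusted p = 6.79e-07). Prc1, which bundles midzone microtubules, ran from 6.60 over 7.31 to 7.93 and from 8.18 over 8.48 to 8.68, a rise of 1.15 ± 0.16 (adjusted p = 3.57e-05). Racgap1 and Anln, of the cleavage furrow, rose by 1.12 ± 0.13 and 1.07 ± 0.15 (adjusted p = 7.32e-06 and 4.08e-05). None of these 4 genes had overlapping groups. Ect2, the exchange factor that activates RhoA at the furrow, rose by 0.78 ± 0.13 (adjusted p = 1.35e-04), with 7 of 9 heme mice above all controls. Kif23, the motor partner of Racgap1, ran from 7.00 over 7.41 to 8.11 and from 7.96 over 8.07 to 8.28, a rise of 0.59 ± 0.13 (adjusted p = 0.00145), with 3 of 9 above.

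Several members are covered by more than 1 probe set, which read other parts of the transcript on the same arrays. Of 100 probe sets assigned to members 62 lay over the floor, and 59 of these were called higher and 0 lower. The 3 that were not called higher belong to Bub3 (1) and Pttg1 (2), with p adjusted over all probe sets of this kind. Of 16 members with several such probe sets, 13 had changes within 0.3 log2 units of each other. The widest differences were those of Kif22 and Kif23. The chosen Kif22 probe set, with a suffix that marks possible cross-hybridization, changed by 0.73 and the others by 1.73 and 1.58. The chosen Kif23 probe set changed by 0.59 and the other by 1.34, and the 3 of Kif11 by 0.94, 1.39 and 1.12. Among the 43 chosen probe sets 5 carry that suffix. Another 5, those of Bub3 and Pttg1 among them, end in s_at, which also marks shared sequence. A further 12 end in a_at. With only probe sets free of all these suffixes, a_at included, 30 of 30 tested members were higher, against 26.2% of all tested genes. Neither Bub3 nor Pttg1 was tested in that setting.

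**Figure D3:**
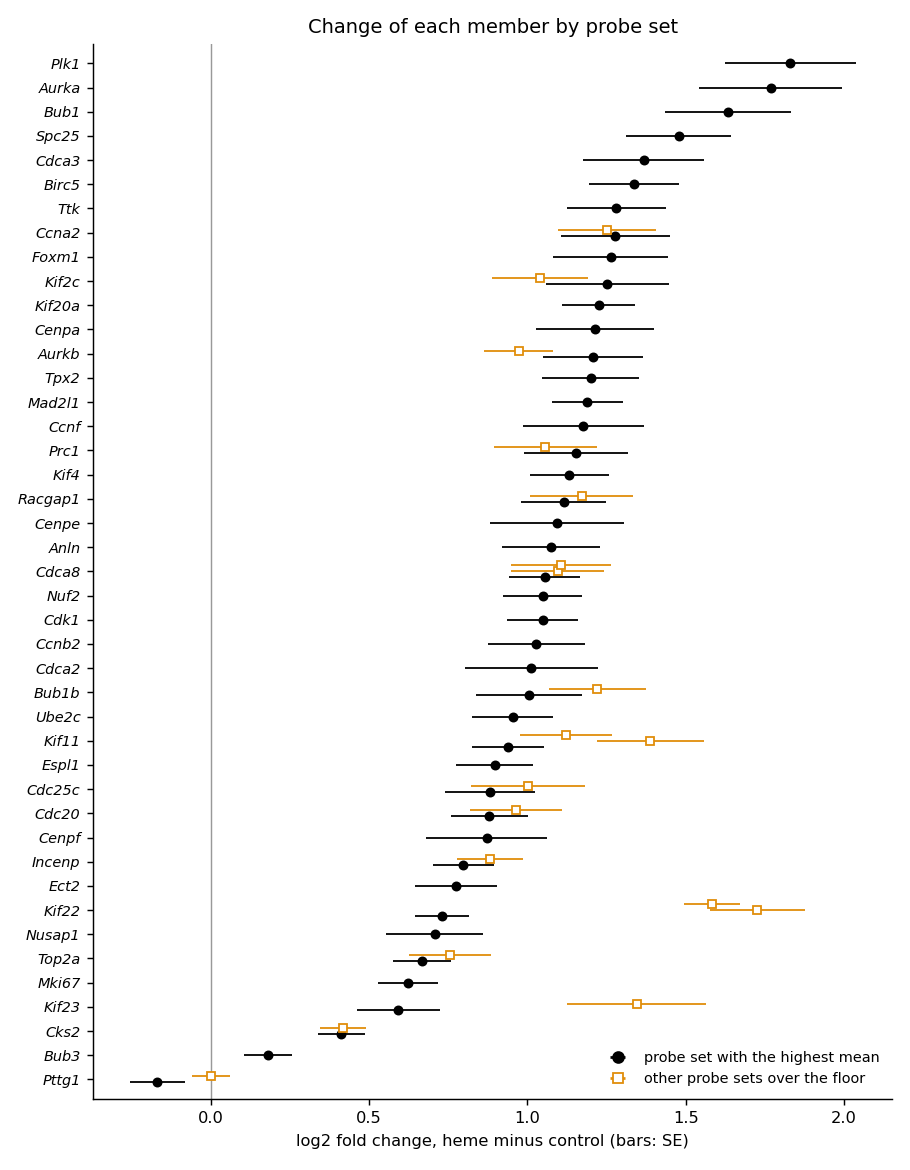
The log2 change, heme minus control, with its SE is shown for the chosen probe set of each tested member (black) and for its other probe sets over the floor (orange). Most extra probe sets lie beside the chosen one, and those of Kif22 (1.73 and 1.58 against 0.73) and Kif23 (1.34 against 0.59) lie apart from it.

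The control mice differed among themselves more than the heme mice did. The SD over controls exceeded that over heme mice in 39 of the 43 members (90.7%), against 61.1% of all tested genes. The median SD of a member was 0.41 in controls and 0.18 in heme mice, and over all tested genes 0.18 and 0.16. The mean log2 expression over the 43 members was 7.35, 7.55, 7.18, 7.99, 7.60 and 6.93 in control mice 1, 2, 3, 4, 6 and 7. In heme mice 1 to 9 it was 8.63, 8.50, 8.41, 8.34, 8.56, 8.28, 8.41, 8.66 and 8.39. The groups did not overlap in this mean (7.44 ± 0.37 against 8.46 ± 0.13, mean ± SD), and the highest control lay 0.29 under the lowest heme mouse.

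The order of the controls recurred from gene to gene. Control mouse 4 was the highest control in 39 of the 43 members, against 20.4% of all tested genes, and control mouse 7 the lowest in 35, against 16.5%. Of the 10 members whose groups overlapped, 9 had control mouse 4 as the highest control. Without control mouse 4 the groups did not overlap in 40 members, against 13.1% of all tested genes, and the SD over controls still exceeded that over heme mice in 39. That mouse also stands apart in tissue markers: its mean over the distal colon Hox genes was 3.19, against 6.81 to 8.94 in the other controls and 7.78 to 8.63 in heme mice. Whether this bears on its mitosis transcripts was not tested. In heme mice the extremes were shared more evenly, with mouse 8 the highest in 20 members and mouse 1 in 12, and mice 6, 4 and 9 the lowest in 15, 13 and 9.

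DNA replication genes, taken as a separate list, ordered the mice in another way. Their mean over 31 tested genes was highest among controls in mouse 3 (7.50, against 6.96 to 7.07 in the other 5), which was next to lowest for the mitosis genes, and control mouse 4 was at 7.03. In heme mice the replication mean ran from 7.54 to 8.20 (7.79 ± 0.19), above all controls (7.10 ± 0.20), and mouse 8 was the highest for both lists. For G1 cyclins, kinases and inhibitors the mean ran from 7.83 to 8.06 in controls and from 8.13 to 8.33 in heme mice.

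**Figure D4:**
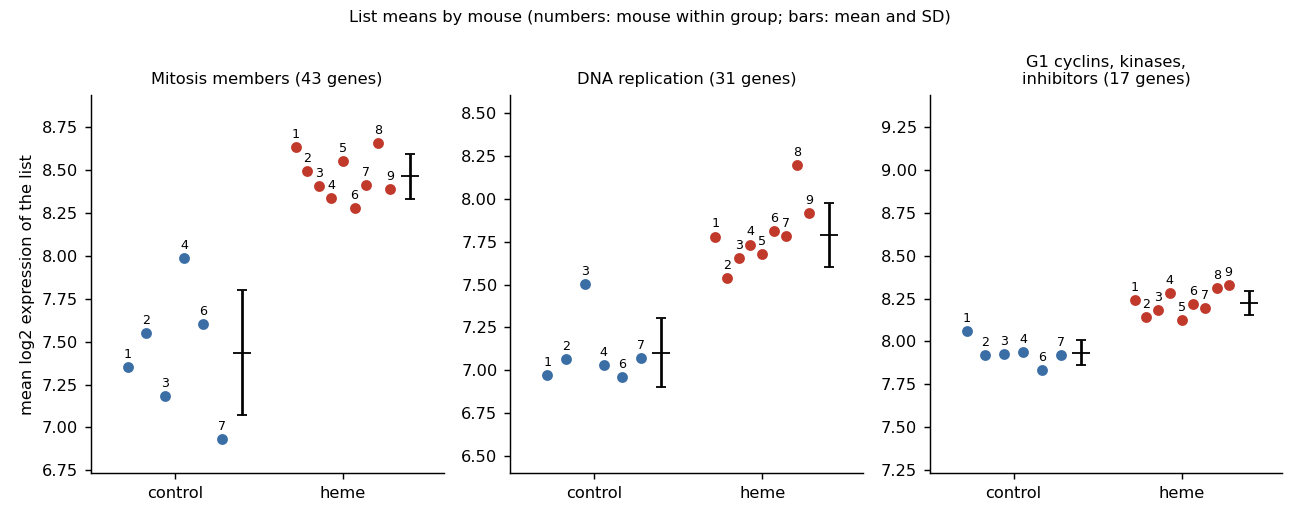
Each point is the mean log2 expression of a list in 1 mouse, numbered within its group (6 control, 9 heme), with bars for the group mean and SD, for the mitosis members, DNA replication genes and G1 genes. Control mouse 4 is the highest control for mitosis (7.99) and control mouse 3 for DNA replication (7.50), and heme mouse 8 is the highest heme mouse for both (8.66 and 8.20).

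Genes that work beside the members were taken from 8 further lists, with 163 tested genes that are not members. Among 25 other kinetochore genes 22 were higher and 0 lower, with a median log2 change of 0.87. Cenph, Cenpi, Cenpn, Cenpt, Kntc1, Spdl1, Ska1, Ska2, Ska3 and Oip5 are among these 22 but had fewer than 6 controls over the floor. They were tested through the heme group, so their calls are no separate support. Cenpw, of the inner kinetochore, rose by 2.06 ± 0.16 and Spdl1, a dynein adaptor at kinetochores, by 1.63 ± 0.20, whereas Cenpc1, Cenpl and Zw10 were not called. Of 25 other spindle, centrosome and midbody genes 20 were higher and 1 lower (Haus2), with a median of 0.98, and the largest rises were those of Plk4, the kinase of centriole duplication (1.40 ± 0.14), and Tacc3 (1.33 ± 0.15). In both lists most genes rose, where 27.2% of all tested genes did. Kif18a, Kif18b, Spag5, Sass6, Haus6 and Cit of the latter list, all but Cit higher, were likewise tested through the heme group.

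The complexes that hold or cut sister chromatids gave a mixed account, where 27.2% of all tested genes were higher and 26.4% lower. Of 21 genes of cohesin, condensin and their regulators 12 were higher and 1 lower (Pds5a), with a median of 0.39. Sgo1, the protector of centromeric cohesin (1.27 ± 0.14), and Ncapg, a condensin subunit (1.18 ± 0.12), rose, while the cohesin subunits Smc1a, Smc3, Rad21, Stag1 and Stag2 were not called. Of 17 core subunits and cofactors of the anaphase promoting complex 9 were higher and 1 lower (Anapc2), with a median of 0.13. The 2 largest rises were those of Ube2s, its chain-extending enzyme (2.08 ± 0.24), and the subunit Anapc15 (0.87 ± 0.10).

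Among 15 tested genes of the G2 checkpoint and the mitotic switch 11 were higher and 0 lower, with a median of 0.54. Haspin, the histone kinase that recruits the passenger complex, lay under the floor in all 6 controls and rose at least 1.68-fold against it, and the mitotic kinase Pbk rose by 1.21 ± 0.12. Wee1, the brake on Cdk1, had a change of −0.10 ± 0.20 and was not called. Of 15 listed DREAM, MuvB and B-Myb genes, known regulators of the program, 12 were tested. The B-Myb gene Mybl2 itself, E2f4 and Lin52 did not pass the signal filter. Of the 12, 4 were higher (Lin54, Lin9, Tfdp1 and Nfyb) and 3 lower (Tfdp2, Rbl2 and E2f5), with a median of 0.00. These shares are near the 27.2% higher and 26.4% lower of all tested genes. Lin54, which binds the CHR, rose by 0.70 ± 0.08 and Tfdp2 fell by 0.43 on the log2 scale (SE 0.08).

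Of 31 DNA replication genes 25 were higher and 0 lower, where 27.2% of all tested genes were higher and 26.4% lower. The median was 0.69, and Rrm2 (1.70 ± 0.15) and Gins2 (1.69 ± 0.16) led. Mcm10, Gins2, Cdc45, Cdc6 and Tyms, all among the 25, were tested through the heme group. Of 17 G1 cyclins, kinases and inhibitors 8 were higher and 2 lower (Cdk6 and Cdkn2b), beside the same shares of all tested genes, with a median of 0.18. E2f2 rose by 2.10 ± 0.27, with 4 of 6 controls over the floor, and the inhibitor Cdkn2c by 1.02 ± 0.12. Of the 163 genes 26 had fewer than 6 controls over the floor and were tested through the heme group, and in 5 of these all controls lay under it (Cenpn, Ska1, Ska3, Haspin and Cdc45).

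**Figure D5:**
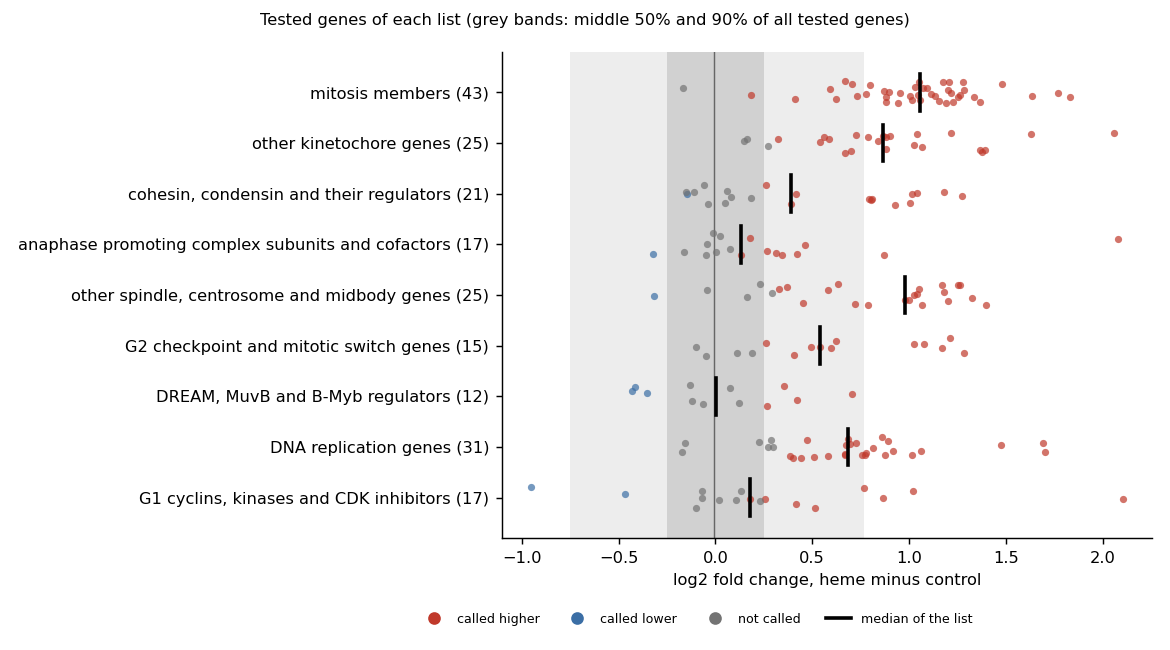
Each point is the log2 change, heme minus control, of 1 tested gene, coloured by its call, for the members and 8 related lists with the number of genes in brackets; black bars are list medians and the grey bands hold the middle 50% and 90% of all tested genes. The members' median is 1.05 and that of the 12 tested DREAM, MuvB and B-Myb regulators, without the B-Myb gene Mybl2, 0.00.

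Tissue and array values moved with the diets in part. Epithelial markers were at 12.51 to 12.68 (mean log2 over the list) in controls and 12.53 to 12.69 in heme mice. Smooth muscle markers (5 of 10 tested, all 5 lower) were at 6.99 to 9.95 and 5.88 to 7.27, crypt base markers (5 of 8 tested lower, Lgr5 among them) at 6.36 to 6.68 and 5.81 to 6.27, and mature colonocyte markers (2 of 10 higher, 4 lower) at 11.95 to 12.13 and 11.89 to 12.03. Of 7 tested fibroblast and matrix markers 0 were called, at 5.90 to 9.62 in controls and 6.04 to 7.73 in heme mice. Of 8 goblet cell markers 1 was higher and 4 were lower, at 13.33 to 13.87 and 13.35 to 13.57. Of 8 T and NK cell markers with a probe set, 6 lay under the floor on all arrays and 1 was tested, the granzyme gene Gzma. It ran from 6.58 to 8.02 in controls and from 3.42 to 4.42 in heme mice, where 8 of 9 lay under the floor. Gzma was called lower, but it passed the filter through the control group, where it is high. As most heme values lay under the floor, no size is given for the fall. Its part in the members' changes was not tested. With the smooth muscle mean as a covariate 38 of 43 members were called higher, against 18.0% of all tested genes, and with the mature colonocyte mean 34, against 15.7%, the members' median then being 0.69. Array medians ran from 3.11 to 3.24, genes over the floor from 9066 to 9319, and the 3′ minus 5′ difference of the Actb control probe sets from 0.52 to 0.75 in controls and 0.41 to 0.66 in heme mice.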

How the data were processed

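Expression was measured in colon scrapings of 15 mice, 6 control and 9 heme, with 1 array per mouse. The authors deposited 1 log2 expression value per probe set and mouse, made with GCRMA 2.22.0, per the submitters' processing notes. Other steps were not stated, and the log2 scale was read from the values. GCRMA corrects background from probe sequence and normalizes between arrays. Labels do not name cages or days, so p-values measure the spread between these mice. The number of arrays limits the precision.

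Of 45101 probe sets, 34958 had 1 gene symbol in the array annotation, 932 had several and 9211 none listed, and only the first stood for genes. Heme and control were compared with limma 3.58.1 (R 4.3.3; two-sided moderated test, Benjamini-Hochberg adjustment over 9257 genes, threshold 0.05), tested on simulated data. Named were all members and, of each related list, the 2 genes with the largest called change, and others named were chosen after their values were seen. Members and lists were chosen with earlier results of these data known. Alternatives covered the signal filter, floor, probe set, normalization, variance model, weights, replicate number, array number, tissue covariates and single mice; testing each probe set was added after the data were seen.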

Additional observations from a re-analysis of the deposited data

Results flagged for a closer look

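In 152 groups of mice, taken from the members, the named related genes and the list means, the highest or lowest mouse was set against the rest with Dixon's 95% critical value. In 10 of them a mouse stood apart, where chance gives about 1 in 20 groups. Among the members, heme mouse 6 was low for Ccnf (6.01 on the log2 scale, others 6.45 to 6.83) and for Cdca3 (9.66, the highest at 10.27). Heme mouse 8 was high for Top2a (10.57, others 10.12 to 10.33), and heme mouse 9 was low for Pttg1 (10.38, others 10.77 to 11.08).

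Among related genes, control mouse 4 was high for Cenpw (6.09, others 5.07 to 5.44) and control mouse 1 was low for Ube2s (6.79, others 7.61 to 8.06). Control mouse 1 was also high for Haspin (4.06, others 3.71 to 3.76), with all 6 values under the floor of 4.32. Control mouse 7 was low for Pbk (7.48, others 8.04 to 8.36), and heme mouse 8 was high for Cdkn2c (7.81, others 6.91 to 7.31). The mean of the DNA replication genes was high in control mouse 3 (7.50, others 6.96 to 7.07).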

How the results depend on the processing

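Under 29 alternative settings, 15 of which left out a single mouse, most members kept their call. Leaving out each mouse gave 41 to 42 members higher, 0 to 0 lower, a member median of 0.97 to 1.17, and 2332 to 2557 genes higher and 2152 to 2517 lower over all tested genes. With the mean of all probe sets of a gene, 1 member was called lower (Pttg1, −0.17, adjusted p = 0.0250 with limma), and over its 28 alternatives its adjusted p ran from 0.0250 to 0.303. With the smooth muscle mean as a covariate 1662 of all tested genes were higher. With the mature colonocyte mean 1453 were higher and 1300 lower, and the member median was 0.69; the cause was not tested.

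Beside Bub3 and Pttg1, the other 41 members gave 1165 values, of which 0 reversed and 10 lost the call, in 7 members and 0 times when a single mouse was left out. The smooth muscle covariate ended the calls of Cenpf (0.82), Nusap1 (0.65) and Kif23 (0.53). The colonocyte covariate ended those of Cdca2 (0.59), Cenpe (0.51), Cenpf (0.29), Bub1b (0.52), Nusap1 (0.20), Kif23 (0.18) and Ect2 (0.40).

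Replicate numbers gave little sign of pairing: of 6 numbers found in both groups, 1 had a correlation over 0.1. In 2 of the 6 the control correlated best with the heme mouse of its own number. With the replicate block 41 of 43 members were higher, against 22.3% of all tested genes.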
